A study of Mus musculus with 18 samples.

Results

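Cytosolic lipid droplets store triglycerides and sterol esters behind a single layer of phospholipid that is coated with proteins. Perilipins sit on that layer and hold back or admit lipases, CIDE proteins move lipid from small droplets into large ones, and FIT proteins act at the endoplasmic reticulum where droplets bud. In hepatocytes the lipid of these droplets is either hydrolysed by neutral lipases or carried to lysosomes, where lysosomal acid lipase, the product of Lipa, splits it into free cholesterol and fatty acids. The 10 genes described here, of 35441 genes in the deposited table, are the perilipins Plin2, Plin3, Plin4 and Plin5, the CIDE genes Cidea, Cideb and Cidec, the droplet proteins Hilpda and Hsd17b13, and Fitm2. They were chosen by name for these roles, with earlier results of these data known, and each of the 10 passed the filter on low counts.

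RNA of 18 livers was sequenced, with 3 male mice in each of 6 groups. At both 12- and 34-weeks after injection, 1 group was wild type (WT), 1 was Lipa-/- and 1 was Lipa-/- treated with rAAV8, and the sample labels give these times as 3 and 8 months. The Lipa-/- mice, treated or not, lack exon 4 of Lipa after deletion with a Cre recombinase under the CMV promoter, and were backcrossed to C57BL/6N. The treated mice received, through the tail vein as young adults, an rAAV8 vector with the human LIPA cDNA and a 3xHA tag under the hAAT promoter, which is active in hepatocytes. The study's methods state that all but 1 of the untreated Lipa-/- mice kept for the late time point reached an ethical endpoint before it, and whether the 3 late untreated livers were all taken at the labelled time is not stated. The mouse names carry study codes that no mouse shares across the time points, so that code and time point cannot be told apart. Of the 9 mice at 12-weeks, 8 share 1 code and mouse 5 of the Lipa-/- group has another.

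Levels are given in CPM, the reads of a gene relative to the scaled size of its library. The label check held in 18 of 18 livers, with Lipa at 202 to 323 CPM in WT mice and at 16.7 to 37.0 CPM in Lipa-/- mice, treated or not. Human LIPA lay between 523 and 2745 CPM in the 6 treated mice, had 0 reads in the 6 untreated Lipa-/- mice, and had 1 and 23 reads in mice 1 and 2 of the WT group at 34-weeks. Each liver had between 17527824 and 25833059 reads assigned to genes, so that 3 reads, taken as the floor, correspond to 0.0946 to 0.291 CPM. The floor covers counting error only, while the SEs and 95% intervals of log2 fold changes come from the fit and include the spread between mice. Hepatocyte markers summed to 65630 to 82548 CPM in WT, 40376 to 58488 in Lipa-/- and 61315 to 109734 in treated mice at 12-weeks, and to 62680 to 79781, 24216 to 49801 and 52483 to 79334 CPM at 34-weeks. Alb was the largest part of each sum, and single markers differed from it. In treated mice at 12-weeks 3 of 11 were called lower than WT and 1 higher. There Hnf4a was at 72.0 to 145 CPM against 340 to 549 in WT, and Fah at 96.8 to 342 against 452 to 581. Apoa1 in Lipa-/- mice at 12-weeks, at 11560 to 14110 CPM, lay within the WT range. Macrophage markers summed to 152 to 361, 4679 to 11303 and 1076 to 2954 CPM at 12-weeks, and to 261 to 534, 6113 to 7628 and 397 to 962 CPM at 34-weeks, in the same order of groups. In untreated Lipa-/- mice most of these sums came from Gpnmb (1343 to 2814 CPM), Lyz2 (1821 to 5560) and Spp1 (397 to 2205), also a cholangiocyte marker. Clec4f went the other way, from 45.4 to 160 CPM in WT to 0.220 to 42.4 CPM in Lipa-/- mice. Timd4 did so too, from at least 2.56 CPM in WT to at most 0.883 CPM in Lipa-/- mice. In whole liver, fewer cells of a type and less RNA per cell cannot be told apart, and the part of these marker shifts in the results below was not tested.

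CPM values were scaled with TMM factors, which differed between the groups, from 0.587 in mouse 10 of the treated group at 12-weeks to 1.69 in mouse 4 of the Lipa-/- group at 34-weeks. Scaling by library totals instead moved the median log2 difference of all 14533 genes tested by 0.47 between Lipa-/- and WT mice at 12-weeks and by 0.63 at 34-weeks. Differences below are therefore relative to the bulk of genes, and each call that is lost on totals is named.

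The window of 250 bases before the start of the canonical transcript was read from GRCm39 for 9 members. That start is also the start of the gene for Plin2, Plin4, Cideb, Hilpda and Hsd17b13, while for Fitm2, Plin5, Cidec and Plin3 it lies inside the gene, 27, 67, 747 and 2316 bases from its outermost start. The sequences of Plin2, Plin4, Hsd17b13 and Hilpda are shown, since these windows begin at the start of the gene and hold no annotated exon. They include the main droplet coat protein of hepatocytes and Hilpda, the member called higher at 34-weeks. Capitals mark AGGTCA, the half-site bound by PPAR and other nuclear receptors, or its complement TGACCT and, in Plin2, ACGTG, the core of the hypoxia response element. The windows, all written 5′ to 3′ on the strand of the gene, are chr4:86588460-86588709 (minus strand) for Plin2, chr17:56416932-56417181 (minus) for Plin4, chr5:104125282-104125531 (minus) for Hsd17b13 and chr6:29272159-29272408 (plus) for Hilpda.
Plin2: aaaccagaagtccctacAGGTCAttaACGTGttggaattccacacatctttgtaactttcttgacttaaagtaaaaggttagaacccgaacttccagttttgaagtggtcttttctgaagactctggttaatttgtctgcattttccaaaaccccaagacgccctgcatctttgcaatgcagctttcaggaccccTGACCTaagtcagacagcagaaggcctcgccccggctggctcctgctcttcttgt
Plin4: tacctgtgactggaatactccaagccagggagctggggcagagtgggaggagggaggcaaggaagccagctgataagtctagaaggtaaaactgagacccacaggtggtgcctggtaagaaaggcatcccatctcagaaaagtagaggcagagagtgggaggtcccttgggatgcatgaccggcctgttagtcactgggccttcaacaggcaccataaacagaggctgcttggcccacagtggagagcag
Hsd17b13: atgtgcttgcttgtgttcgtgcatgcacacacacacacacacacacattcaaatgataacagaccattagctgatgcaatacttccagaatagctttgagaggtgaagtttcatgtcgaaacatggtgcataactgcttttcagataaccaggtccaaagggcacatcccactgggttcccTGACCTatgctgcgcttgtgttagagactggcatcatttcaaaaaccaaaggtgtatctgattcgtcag
Hilpda: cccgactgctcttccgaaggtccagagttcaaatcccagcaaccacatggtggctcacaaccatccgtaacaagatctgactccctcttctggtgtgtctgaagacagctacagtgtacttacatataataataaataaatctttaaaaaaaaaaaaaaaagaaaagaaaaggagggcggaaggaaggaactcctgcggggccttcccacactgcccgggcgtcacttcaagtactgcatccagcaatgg

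AGGTCA on either strand was found in 13.1% of the 21738 windows of the same length before canonical transcripts of protein-coding genes, and in 3 of the 9 members, Plin2, Plin5 and Hsd17b13. In Plin2 the matches lay 233 to 228 bases before the start of the transcript on the strand of the gene and 55 to 50 bases before it on the opposite strand. Plin5 had 1 match, 175 to 170 bases before the start of its canonical transcript, and Hsd17b13 had 1 on the opposite strand, 69 to 64 bases before its start. ACGTG, found in 17% of windows, occurred in Plin2 alone among the 9 members, 224 to 220 bases before the start, and the E-box CACGTG, which contains it and was found in 6.27% of windows, occurred in 0 of them. CCAAT, found in 36.5% of windows, occurred in Plin3, Plin5 and Cidec. Cideb and Fitm2, which were lower in Lipa-/- mice, and Plin3 and Hilpda, which were higher, had no AGGTCA in their windows. Plin4 and Cidec had none either. Annotated exons fill all 250 bases of the Cideb and Fitm2 windows and 67 bases of the Plin5 window. For Cideb and Fitm2 a missing match thus says little about sequence outside exons. All matches given here are matches of letters and not measured binding sites.

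In CPM, Plin2, Plin5, Cideb, Hsd17b13 and Fitm2 were lower in each untreated Lipa-/- liver than in each WT liver of its time point. Plin3 and Hilpda were higher in the same way. TPM is scaled per transcript length and to the library total. In TPM the groups of these members overlapped for Plin2, Cideb and Hsd17b13 at 12-weeks and for Fitm2 and Hsd17b13 at 34-weeks. Cidea, whose groups at 34-weeks did not overlap in CPM, overlapped there in TPM as well. At 12-weeks, Plin5 and Fitm2 fell and Plin3 rose in Lipa-/- mice, which is 3 of 10 members called, where 29.3% of all genes tested were called. A gene is called when its absolute log2 fold change exceeds 1 and its adjusted p lies under 0.05, in edgeR's quasi-likelihood test with Benjamini-Hochberg adjustment over all genes tested. By direction, 1 member was called higher against 20.2% of all genes and 2 were called lower against 9.06%. At 34-weeks, 8 of 10 members were called against a background of 36.3%, with 1 higher (background 20.5%) and 7 lower (background 15.7%). The median log2 difference of the 10 members was -0.56 at 12-weeks and -1.69 at 34-weeks, against 0.02 and -0.03 for all genes tested. In CPM, the groups of 3 Lipa-/- and 3 WT mice did not overlap for 7 members at 12-weeks, where 52.7% of all genes tested did not. They did not overlap for 9 members at 34-weeks, where 60.3% of all genes did not, the exception being Plin4. Without mouse 5 of the Lipa-/- group, which has its own study code, the calls of Plin5 (-1.56, adjusted p = 0.000236), Fitm2 (-1.45, adjusted p = 0.00122) and Plin3 (1.14, adjusted p = 0.000878) at 12-weeks held.

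**Figure D1:**
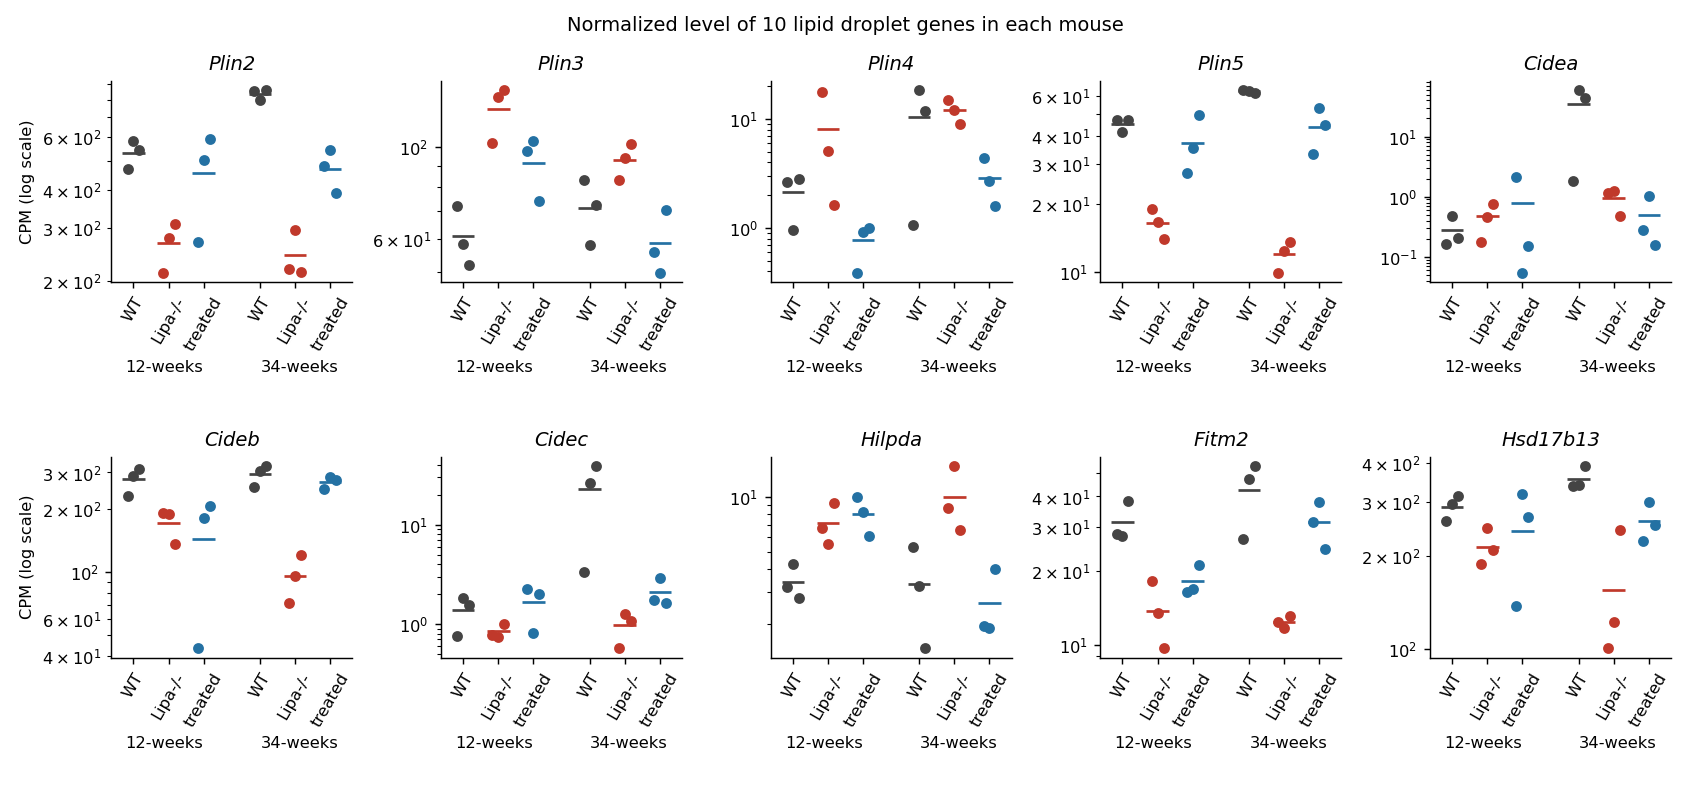
TMM-scaled level in CPM, on a log axis, of each of the 10 genes in each of the 18 livers, with a dot for each mouse and a bar for the mean of 3 mice. Plin5 and Fitm2 lie lower in all 6 untreated Lipa-/- mice (red) than in all 6 WT mice (black), and Cidea and Cidec stand high in 2 of the 3 WT mice at 34-weeks.

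Plin2, the main droplet coat protein of hepatocytes (chromosome 4, 86565912 to 86588459, minus strand, 8 exons), was at 471, 582 and 544 CPM in WT mice at 12-weeks and at 213, 278 and 310.1 CPM in Lipa-/- mice. Each Lipa-/- liver was below each WT liver. The log2 fold change was -0.995 ± 0.27 (SE, n = 3 mice per group, adjusted p = 0.00681), which lies just under the fold threshold, so Plin2 was not called at 12-weeks. It was called, at -1.02 to -1.11, without mouse 8 or 9 of the Lipa-/- group or mouse 1 of the WT group (adjusted p = 0.0108 to 0.0198). At 34-weeks it was at 856, 797 and 860.1 CPM in WT and at 219, 296 and 215 CPM in Lipa-/- mice, and fell by 1.78 ± 0.27 on the log2 scale (adjusted p = 4.98e-05). The untreated Lipa-/- livers of the 2 time points overlapped in Plin2, whereas the WT livers at 34-weeks all lay above those at 12-weeks (log2 0.65 ± 0.26, adjusted p = 0.51).

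Plin5, which ties droplets to mitochondria and is abundant in tissues that oxidise fatty acids (chromosome 17, 56418446 to 56424610, minus strand), gave the clearest decrease among the perilipins. It was at 47.0, 41.7 and 46.8 CPM in WT mice and at 19.0, 16.7 and 14.0 CPM in Lipa-/- mice at 12-weeks. At 34-weeks WT mice had 63.7, 63.2 and 61.7 CPM and Lipa-/- mice 9.96, 12.4 and 13.7 CPM. The groups were separated by a wide gap at both times, with log2 decreases of -1.45 ± 0.22 (adjusted p = 8.21e-05) and -2.39 ± 0.23 (adjusted p = 5.83e-07). On library totals the Plin5 difference at 12-weeks was -0.98 (adjusted p = 0.00272), just under the fold threshold.

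Plin3 moved the other way. It encodes a perilipin that is soluble in the cytosol and coats nascent droplets (chromosome 17, 56584218 to 56599873, minus strand). WT mice had 72.3, 58.4 and 52.1 CPM at 12-weeks and Lipa-/- mice 102, 132 and 137 CPM, a rise of 1.02 ± 0.21 on the log2 scale (adjusted p = 0.00101). WT mice at 34-weeks had 83.1, 58.2 and 72.5 CPM and Lipa-/- mice 83.3, 94.1 and 102 CPM, so the groups barely separated (0.38 ± 0.21, adjusted p = 0.141). The call at 12-weeks sat at the fold threshold, and Plin3 was under it, at 0.92 to 0.99 with adjusted p of 0.00471 to 0.00784, when mouse 8 or 9 of the Lipa-/- group or mouse 2 or 3 of the WT group was left out. On library totals the difference at 34-weeks was called as well, at 1.03 (adjusted p = 0.000964).

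Plin4, a perilipin of white fat and muscle, was scarce and varied most among the perilipins (chromosome 17, 56406617 to 56416931, minus strand). It lies 1514 bases from Plin5, and Plin5 lies 159607 bases from Plin3, so 3 of the 4 genes form a cluster on chromosome 17. WT mice had 2.62, 0.957 and 2.83 CPM at 12-weeks and Lipa-/- mice 17.7, 5.05 and 1.62 CPM. At 34-weeks WT mice had 1.06, 18.4 and 11.8 CPM and Lipa-/- mice 14.9, 12.2 and 9.04 CPM. The groups overlapped at both times, and the differences of 1.93 ± 0.82 (adjusted p = 0.0722) and 0.20 ± 0.76 (adjusted p = 0.85) were not called. The 17.7 CPM came from mouse 5, the mouse with its own study code, and without it the Plin4 difference at 12-weeks was 0.65 (adjusted p = 0.561). It was called on library totals (2.39, adjusted p = 0.0391), with DESeq2 (1.96, adjusted p = 0.0318), with no filter on low counts (1.93, adjusted p = 0.0492) and without mouse 9 of the Lipa-/- group (2.42, adjusted p = 0.0251). Without mouse 1 of the WT group the Plin4 difference at 34-weeks was -0.32.

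Set side by side per transcript length, in TPM, Plin2 made up most of the perilipin transcripts in every liver. Its share of the summed TPM of Plin2, Plin3, Plin4 and Plin5 was 88.1% ± 2.13 (SD, n = 3) in WT and 79.4% ± 1.74 in Lipa-/- mice at 12-weeks, and 89.8% ± 0.221 and 82.0% ± 3.58 at 34-weeks. The mean difference of -8.29 percentage points had p = 0.005 in a two-sided exact permutation test within time points, the smallest p that its 400 arrangements allow, and the share was lower in 6 of 6 Lipa-/- livers than in any WT liver. The share of Plin3 was 4.83% in WT and 15.7% in Lipa-/- mice at 12-weeks and 3.63% and 13.6% at 34-weeks. The share of Plin5 was 6.96% and 4.21% at 12-weeks and 6.24% and 3.39% at 34-weeks, and that of Plin4 did not exceed 1.58% in any liver.

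**Figure D2:**
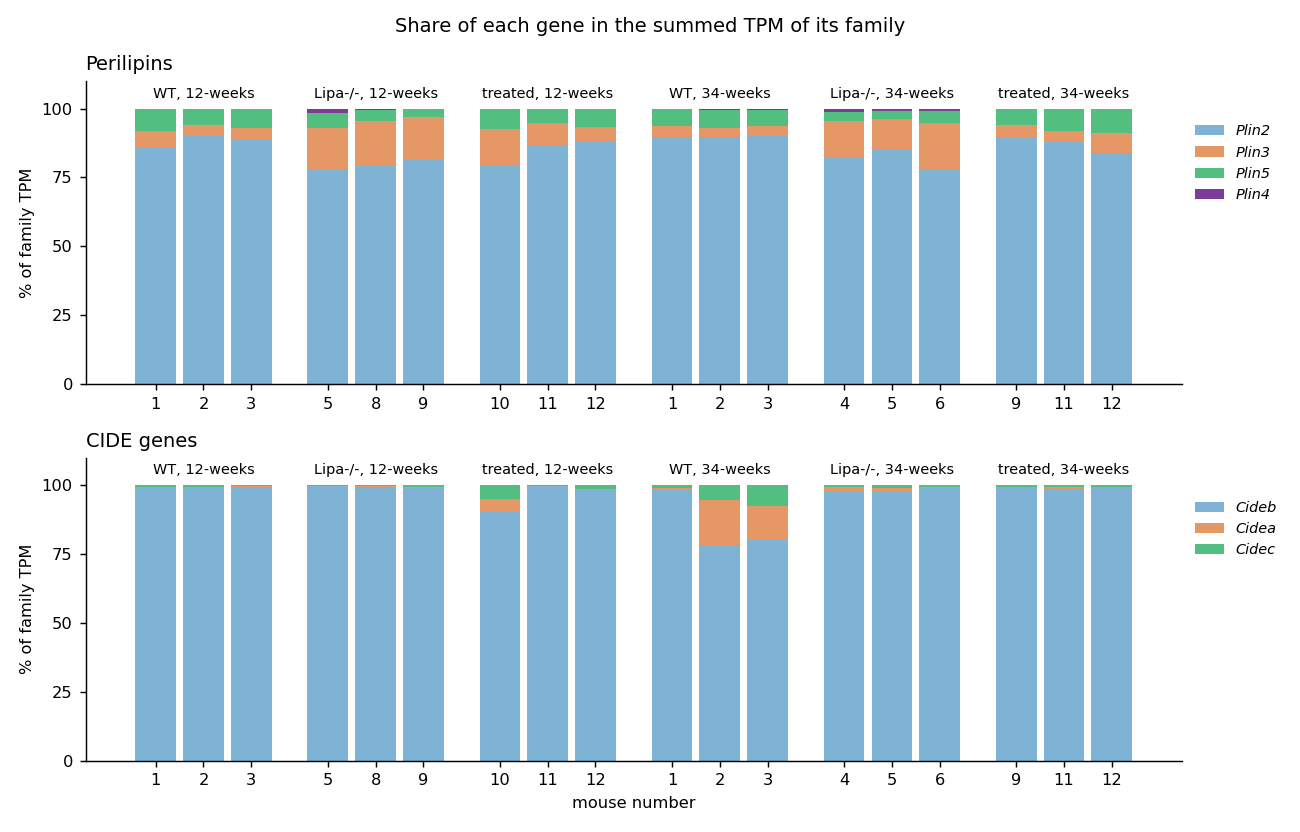
Share of each gene, in percent, in the summed TPM of the 4 perilipins (top) and of the 3 CIDE genes (bottom), with 1 stacked bar for each mouse. The Plin3 segment is wider in the 6 untreated Lipa-/- mice than in the 6 WT mice, and Cideb fills 90.2% or more of each CIDE bar except in mice 2 and 3 of the WT group at 34-weeks.

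The deposited mean effective transcript length of Plin2, which depends on the transcripts to which the reads were assigned, was 1573, 1621 and 1636 bases in WT and 1376, 1469 and 1478 bases in Lipa-/- mice at 12-weeks. At 34-weeks it was 1626, 1630 and 1630 bases in WT and 1381, 1434 and 1504 bases in Lipa-/- mice. All 6 Lipa-/- livers thus lay below all 6 WT livers, by -179 bases on average (two-sided exact permutation test within time points, p = 0.005, adjusted p = 0.025 over the 10 members). In treated mice it was 1521, 1592 and 1593 bases at 12-weeks and 1606, 1627 and 1628 bases at 34-weeks, and the difference from WT of -24.7 bases had an adjusted p of 0.806 in the same exact test. Lengths of Cidec differed as well, by 357 bases (adjusted p = 0.025 in the exact permutation test), with values of 589 to 1167 bases in WT and 1299 to 1457 bases in Lipa-/- mice at 12-weeks and of 1184 to 1279 and 1465 to 1492 bases at 34-weeks. The Cidec lengths rest on few reads outside the WT mice at 34-weeks. The median length deviation of all genes in a mouse ran from -26.2 to 19.7 bases, and removing it left -168 bases for Plin2 and 368 for Cidec. When any 1 of the 3 Lipa-/- mice at 12-weeks was left out, the count of members past the threshold fell from 2 to 0. In this test a p of 0.005 in 1 member alone does not pass the adjustment over the 10 members. The fall to 0 therefore does not show that the lengths of the groups came to overlap. Lengths were tested in the 10 members only, so no share of all genes stands beside this count.

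**Figure D3:**
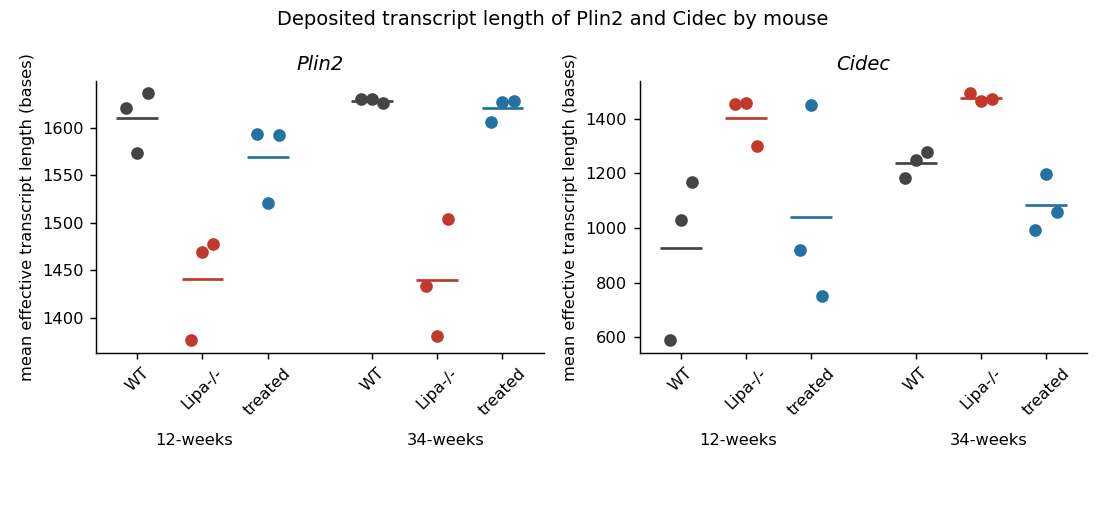
Mean effective transcript length in bases of Plin2 (left) and Cidec (right) as deposited, with a dot for each mouse and a bar for the mean of 3 mice, on axes that do not start at 0. The Plin2 length is at most 1504 bases in untreated Lipa-/- mice and at least 1573 bases in WT mice.

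Cideb, the CIDE protein of hepatocytes, which takes part in droplet fusion and in loading lipid onto very low density lipoprotein (chromosome 14, 55991507 to 55996099, minus strand), was the most abundant of the 3 CIDE genes per length in each liver. WT mice had 233, 288 and 313 CPM at 12-weeks and Lipa-/- mice 192, 189 and 137 CPM, a difference of -0.69 ± 0.38 that was not called (adjusted p = 0.169) although the groups did not overlap. At 34-weeks WT mice had 255, 304 and 323 CPM and Lipa-/- mice 71.0, 95.8 and 121 CPM. The fall of 1.61 ± 0.39 on the log2 scale was called (adjusted p = 0.00271). The change of the effect of Cideb between the time points, -0.93 ± 0.54, was not (adjusted p = 0.611).

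Cidea and Cidec, which enlarge droplets in brown and white fat and are known to rise in fatty liver, gave the largest fitted decreases of the 10 members at 34-weeks, with 2 WT mice far above all other livers. Cidea (chromosome 18) was at 1.83, 59.1 and 44.4 CPM in mice 1, 2 and 3 of the WT group and at 1.13, 1.24 and 0.478 CPM in Lipa-/- mice, which gave -5.20 ± 1.07 (adjusted p = 0.000752). Cidec (chromosome 6, 113400691 to 113412721, minus strand) was at 3.30, 26.4 and 38.9 CPM in the same WT mice and at 0.567, 1.27 and 1.07 CPM in Lipa-/- mice, which gave -4.57 ± 0.68 (adjusted p = 4.13e-05). Mouse 1 of the WT group lay far below its 2 group mates for both genes and, in CPM, still above each Lipa-/- liver. In TPM, Cidea was at 1.52 in this mouse and at 2.46 and 2.03 in Lipa-/- mice 4 and 5, so the groups overlapped. The calls of both genes held when any 1 of the 6 mice was left out. At 12-weeks both genes were low, Cidea at 0.161 to 0.478 CPM in WT (17 reads in all) and at 0.177 to 0.768 CPM in Lipa-/- mice, and Cidec at 0.750 to 1.82 and at 0.738 to 1.01 CPM. The differences at 12-weeks, 0.68 ± 1.28 for Cidea (adjusted p = 0.709) and -0.71 ± 0.66 for Cidec (adjusted p = 0.422), were not called.

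The WT mice themselves differed between the time points for these genes. Cidea was higher at 34- than at 12-weeks by 6.91 ± 1.22 on the log2 scale (adjusted p = 0.0217) and Cidec by 4.05 ± 0.67 (adjusted p = 0.0151), while 0.323% of all genes tested, 47 genes, were called and 2 of them were members. Both calls were lost when mouse 1 or 2 of the WT group at 12-weeks or mouse 2 or 3 of the WT group at 34-weeks was left out, with adjusted p between 0.0623 and 0.139, and Cidea also without mouse 3 at 12-weeks (adjusted p = 0.0787). Adipocyte markers were low in these livers, at 0.506 to 2.56 CPM summed over 7 genes in WT mice at 34-weeks. In mice 2 and 3, where Cidea had 1500 and 1141 reads, Adipoq had 0 and 2 reads, Lep 0 in both, Plin1 0 and 2, Cfd 59 and 4, Retn 3 and 1, Trarg1 1 and 2 and Ucp1 2 in both. Mouse 1, with low Cidea, had 0 reads of Adipoq, Lep and Plin1, 4 of Cfd, 1 of Retn, 3 of Trarg1 and 5 of Ucp1. A part of adipocytes in the Cidea and Cidec levels was not tested. Mogat1, an enzyme of diacylglycerol synthesis, was at 3.42, 8.43 and 12.2 CPM in WT mice 1, 2 and 3 at 34-weeks, and Plin4 was likewise lowest in mouse 1.

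**Figure D4:**
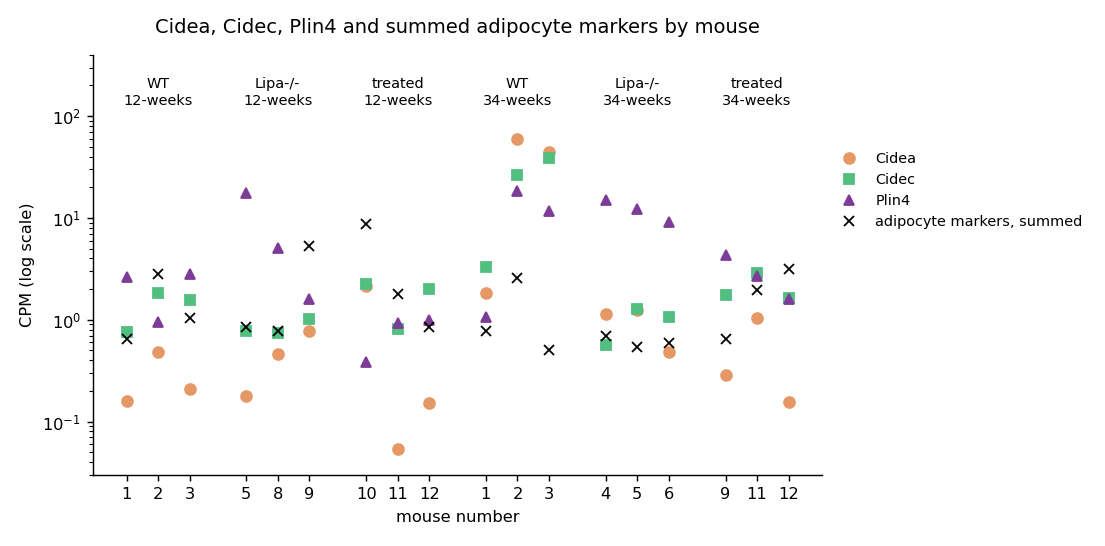
Level in CPM, on a log axis, of Cidea, Cidec and Plin4 and of 7 adipocyte markers summed, in each of the 18 livers by mouse number. Cidea and Cidec exceed 26 CPM in mice 2 and 3 of the WT group at 34-weeks, where the summed adipocyte markers stay at or below 2.56 CPM.

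Cideb accounted for 99.4% of the CIDE transcripts in TPM in WT mice and 99.3% in Lipa-/- mice at 12-weeks. At 34-weeks its share was 85.4% ± 11.1 (SD, n = 3) in WT mice, with a range of 77.9% to 98.2%, and 98.2% in Lipa-/- mice. Over both time points the share differed by 6.33 percentage points between Lipa-/- and WT mice (p = 0.25, exact permutation test) and by 5.24 points between treated and WT mice (p = 0.245, exact permutation test).

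Hilpda, a small protein induced by hypoxia and by fatty acids that inhibits adipose triglyceride lipase, was the member whose rise was called at 34-weeks (chromosome 6, 29272409 to 29276301, plus strand). At 12-weeks WT mice had 3.21, 4.31 and 2.77 CPM and Lipa-/- mice 6.70, 5.51 and 9.17 CPM. WT mice at 34-weeks had 5.31, 3.23 and 1.48 CPM and Lipa-/- mice 8.67, 14.7 and 6.54 CPM. Each Lipa-/- liver was above each WT liver of its time point. The difference was 1.05 ± 0.43 at 12-weeks, not called with an adjusted p of 0.0602, and 1.59 ± 0.43 at 34-weeks (adjusted p = 0.00576). At 12-weeks Hilpda was called on library totals (1.54, adjusted p = 0.00712), with limma (1.39 to 1.47, adjusted p = 0.00637 to 0.00659), with DESeq2 (1.02, adjusted p = 0.0495) and in a fit of the compared groups alone (1.09, adjusted p = 0.0204). The levels are low, with 203 reads over the 3 WT mice at 12-weeks.

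Fitm2, which binds lipid in the endoplasmic reticulum and is needed for droplets to form (chromosome 2, 163308228 to 163314576, minus strand), fell at both time points. WT mice had 28.1, 27.7 and 38.5 CPM and Lipa-/- mice 18.2, 13.4 and 9.65 CPM at 12-weeks. At 34-weeks WT mice had 26.9, 47.2 and 53.3 CPM and Lipa-/- mice 12.4, 11.7 and 13.04 CPM. The log2 decreases were -1.19 ± 0.27 (adjusted p = 0.00218) and -1.78 ± 0.27 (adjusted p = 5.64e-05). At 12-weeks Fitm2 was not called without mouse 9 of the Lipa-/- group (-0.99, adjusted p = 0.0139) or on library totals (-0.73, adjusted p = 0.0728).

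Hsd17b13, an enzyme of the hydroxysteroid dehydrogenase family found on the droplets of hepatocytes (chromosome 5, 104103306 to 104125281, minus strand), was at 260.5, 295 and 313 CPM in WT mice and 188, 246 and 209 CPM in Lipa-/- mice at 12-weeks. The difference of -0.43 ± 0.31 was not called (adjusted p = 0.295) and was 0.03 on library totals. At 34-weeks WT mice had 337, 341 and 393 CPM and Lipa-/- mice 100.2, 122 and 243 CPM, a fall of 1.20 ± 0.32 on the log2 scale (adjusted p = 0.00491). The 3 Lipa-/- livers were spread widely, and without mouse 4 the Hsd17b13 difference was -0.93 (adjusted p = 0.0376). On library totals it was -0.61 (adjusted p = 0.125).

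In TPM of the WT livers at 12-weeks, Plin2 (282 ± 40.3, SD, n = 3), Cideb (245 ± 57.4) and Hsd17b13 (231 ± 43.5) had the highest levels, and these 3 did not differ beyond their spread. Plin5 (22.2 ± 4.03) and Plin3 (15.2 ± 2.54) followed, then Fitm2 (7.32 ± 2.41) and Hilpda (3.96 ± 0.432). Cidec (1.23 ± 0.137), Plin4 (0.317 ± 0.182) and Cidea (0.266 ± 0.135) were lowest, the last 2 within their spread of each other. In Lipa-/- livers at 34-weeks the order was Plin2 (269 ± 51.8), Hsd17b13 (224 ± 92.4), Cideb (154 ± 23.9), Plin3 (43.7 ± 3.97), Hilpda (21.4 ± 8.15) and Plin5 (10.8 ± 0.649), so that Plin3 and Hilpda stood above Plin5. TPM is scaled to the total of each library and not by TMM, and with limma on log2(TPM + 0.5) the Lipa-/- difference at 34-weeks was -0.95 (adjusted p = 0.0215) for Plin2, -0.95 (adjusted p = 0.103) for Cideb, -0.98 (adjusted p = 0.0278) for Fitm2 and -0.62 (adjusted p = 0.159) for Hsd17b13, all under the fold threshold.

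Calls of members between treated Lipa-/- and WT mice lay under the share of all genes at 12-weeks and above it at 34-weeks. At 12-weeks, 1 of 10 members, Hilpda, was called against WT, where 25.5% of all genes were called, 13.6% higher and 12% lower. At 34-weeks, Cidea and Cidec were called lower, where 0.22% of all genes, 32 genes, were called. The median log2 difference from WT of the 10 members was -0.24 at 12-weeks and -0.49 at 34-weeks, against 0.06 and 0.00 for all genes tested. These comparisons share the WT mice with those of the untreated Lipa-/- mice.

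Plin2 was at 269.7, 504 and 594 CPM in treated mice at 12-weeks, where mouse 10 lay in the range of the untreated Lipa-/- mice and the other two in or near that of WT mice. At 34-weeks treated mice had 480.0, 546 and 391 CPM, above the 3 untreated Lipa-/- mice and below the 3 WT mice of that time point. In TPM the treated and untreated mice overlapped in Plin2 at both times. At 12-weeks treated mice had 75.9, 213 and 196 TPM, each below the 265 TPM of untreated mouse 9. At 34-weeks treated mouse 12, at 261 TPM, lay below untreated mice 4 and 5, at 294 and 304 TPM. The difference of treated from WT mice was -0.22 ± 0.26 at 12-weeks (95% interval -0.78 to 0.33, adjusted p = 0.519) and -0.83 ± 0.26 at 34-weeks (-1.39 to -0.27, adjusted p = 0.495). The Plin2 share of the perilipin TPM was 84.7% ± 4.83 and 87.1% ± 2.80 (SD, n = 3) in treated mice, -3.10 percentage points from WT (p = 0.07, exact permutation test). Without mouse 12 at 12-weeks it was -3.98 points (p = 0.03, exact permutation test).

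Plin5 was at 27.5, 35.5 and 49.3 CPM in treated mice at 12-weeks and at 33.4, 53.0 and 44.6 CPM at 34-weeks. In CPM all 6 values lay above those of the 6 untreated Lipa-/- mice, and those at 34-weeks lay below the WT mice of that time point. In TPM treated mouse 10, at 7.07, lay below the 3 untreated mice at 12-weeks. At 34-weeks treated mice 11 and 12, at 29.8 and 27.5 TPM, lay above WT mouse 1, at 26.8 TPM. The differences of Plin5 from WT were -0.27 ± 0.22 (adjusted p = 0.336) and -0.53 ± 0.22 (adjusted p = 0.739). Plin3 had 97.9, 103 and 74.3 CPM at 12-weeks, above the 3 WT mice (0.59 ± 0.21, adjusted p = 0.0361, under the fold threshold), and 55.8, 49.8 and 70.7 CPM at 34-weeks, within or below the WT range (-0.28 ± 0.21, adjusted p = 0.965). With limma on log2(TPM + 0.5) the difference of Plin3 at 12-weeks was -0.08, of the opposite sign. Plin4 had 0.389, 0.923 and 0.996 CPM at 12-weeks and 4.35, 2.68 and 1.59 CPM at 34-weeks, and was not called against WT (adjusted p = 0.236 and 0.797).

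Hilpda was the member called against WT in treated mice at 12-weeks, at 9.91, 8.26 and 6.05 CPM, a rise of 1.23 ± 0.43 (adjusted p = 0.0352). At 34-weeks treated mice had 1.95, 1.91 and 4.04 CPM, among the WT values (-0.32 ± 0.43, adjusted p = 0.975). Between the time points Hilpda fell by 1.60 ± 0.44 in treated mice (adjusted p = 0.00777), which is 1 of 10 members called where 32% of all genes were called. The call of Hilpda at 12-weeks was lost without mouse 10 or 11 of the treated group or mouse 1 or 3 of the WT group (0.99 to 1.21, adjusted p = 0.0678 to 0.143), and on library totals (0.84, adjusted p = 0.117). On library totals the fall of Hilpda between the time points was -0.95 (adjusted p = 0.0644).

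Cidea and Cidec were lower in treated than in WT mice at 34-weeks. Cidea was at 0.284, 1.04 and 0.156 CPM and Cidec at 1.75, 2.89 and 1.63 CPM, each below the 3 WT mice in CPM. In TPM, Cidec was at 2.13 and 2.39 in treated mice 9 and 11, above the 2.08 of WT mouse 1. The differences from WT were -6.23 ± 1.16 for Cidea and -3.46 ± 0.64 for Cidec (adjusted p = 0.0328 for both). Against untreated Lipa-/- mice they differed by -1.03 ± 1.11 (adjusted p = 0.492) and 1.10 ± 0.64 (adjusted p = 0.183). At 12-weeks Cidea was at 2.14, 0.0543 and 0.153 CPM and Cidec at 2.23, 0.815 and 1.99 CPM, which overlapped the WT mice (adjusted p = 0.483 and 0.794). The effect of Cidea changed between the time points by -7.46 ± 1.75 (adjusted p = 0.0241) and that of Cidec by -3.70 ± 0.91 (adjusted p = 0.0245), which is 2 of 10 members where 18.4% of all genes were called. The calls of Cidea and Cidec at 34-weeks were lost when any 1 of the 3 treated mice or mouse 2 or 3 of the WT group was left out, with adjusted p between 0.0666 and 0.232. The calls of their change between time points were lost without mouse 10 of the treated group at 12-weeks, mouse 9 at 34-weeks, or mouse 1 or 3 of the WT group at 12-weeks (adjusted p from 0.0508 to 0.284), and the change of Cidea was -4.63 without mouse 10.

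Cideb was at 43.3, 182 and 207 CPM in treated mice at 12-weeks, below the WT mice (-0.95 ± 0.38, adjusted p = 0.0625), with mouse 10 far below the others. At 34-weeks it was at 249, 287 and 275 CPM, within 0.12 of WT on the log2 scale (-0.12 ± 0.38, 95% interval -0.93 to 0.68, adjusted p = 0.992). On library totals the difference of Cideb at 12-weeks was -1.31 and was called (adjusted p = 0.0209). Fitm2 was at 16.3, 16.9 and 21.0 CPM in treated mice at 12-weeks, below the 3 WT mice (-0.80 ± 0.27, adjusted p = 0.03, under the fold threshold), and at 31.6, 38.1 and 24.4 CPM at 34-weeks (-0.44 ± 0.27, adjusted p = 0.954). On library totals Fitm2 at 12-weeks was called, at -1.22 (adjusted p = 0.00936). Hsd17b13 was at 138, 317 and 269 CPM in treated mice at 12-weeks and at 225, 300.3 and 253 CPM at 34-weeks, with differences of -0.26 ± 0.31 (adjusted p = 0.524) and -0.46 ± 0.31 (adjusted p = 0.965).

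**Figure D5:**
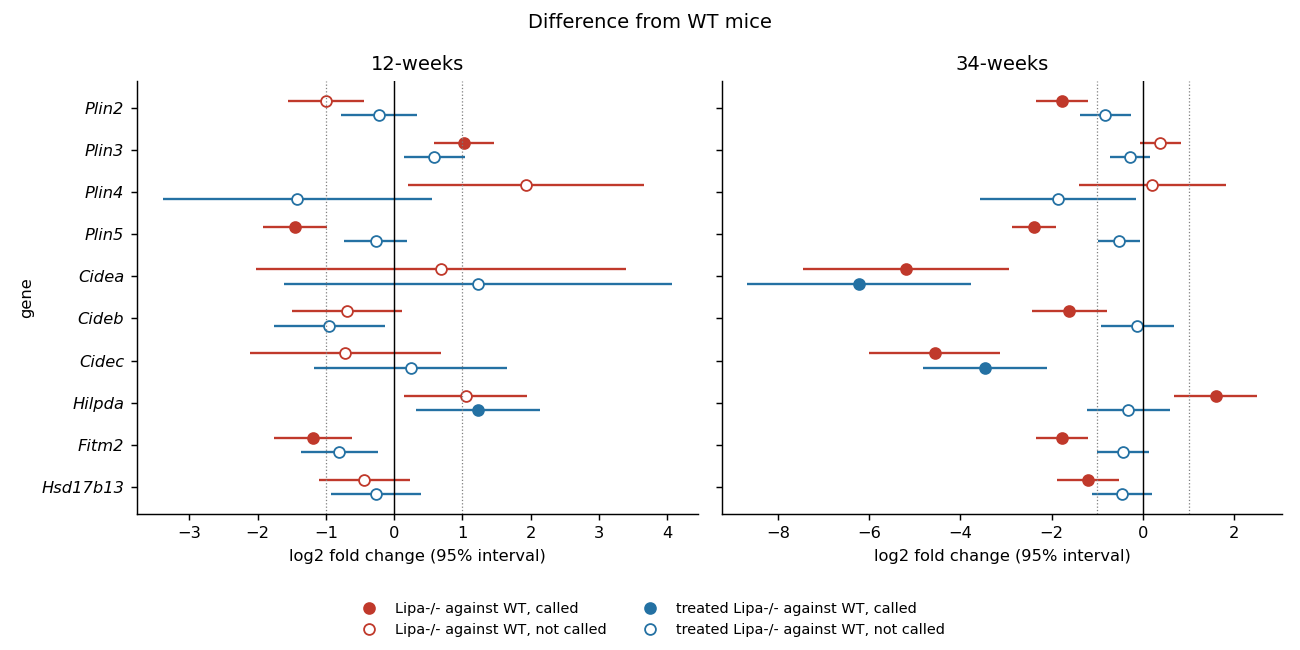
Log2 fold change from WT, with its 95% interval, of each of the 10 genes in untreated (red) and treated (blue) Lipa-/- mice at 12-weeks (left) and 34-weeks (right), on axes of different range. Filled dots mark called genes, of which untreated mice have 3 and 8 and treated mice have 1 and 2, and dotted lines mark a log2 fold change of 1 in either direction.

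Set directly against untreated Lipa-/- mice, treated mice had higher Plin5 at both time points, by 1.18 ± 0.22 at 12-weeks (adjusted p = 0.000432) and by 1.86 ± 0.23 at 34-weeks (adjusted p = 8.31e-06). At 12-weeks 2 of 10 members were called, where 41.5% of all genes were called. They were Plin5 (1 higher, background 16.2%) and Plin4 (1 lower, background 25.3%). Plin4 fell by 3.35 ± 0.92 on the log2 scale (adjusted p = 0.00624), a call that was lost without mouse 5 of the Lipa-/- group (-2.07, adjusted p = 0.0603). Plin5 at 12-weeks was not called without treated mouse 12 (0.90, adjusted p = 0.00361), on library totals (0.30, adjusted p = 0.253) or with limma on log2(TPM + 0.5) (0.01, adjusted p = 0.97), where the scaling itself moved the median of all genes by -0.87. Plin2 at 12-weeks, 0.77 ± 0.26 higher in treated mice (adjusted p = 0.0214), was not called and was -0.08 on library totals. Uncalled differences of Cidea (0.55), Fitm2 (0.39), Hilpda (0.18) and Hsd17b13 (0.17) in this comparison were likewise below 0 on library totals, at -0.37, -0.48, -0.70 and -0.66.

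At 34-weeks 4 of 10 members were called between treated and untreated Lipa-/- mice, where 31.5% of all genes were called. Plin5, Cideb and Fitm2 were higher (background 12.8%), Cideb by 1.49 ± 0.39 (adjusted p = 0.00539) and Fitm2 by 1.34 ± 0.27 (adjusted p = 0.000815). Hilpda was lower (background 18.6%), by -1.91 ± 0.43 (adjusted p = 0.00203). Plin2 was 0.96 ± 0.27 higher (adjusted p = 0.00811) and Plin3 -0.66 ± 0.21 lower (adjusted p = 0.0174), both under the fold threshold with groups that did not overlap in CPM. In TPM the groups overlapped for Plin2. The calls of Plin5 and Hilpda held on library totals, while those of Cideb (0.97, adjusted p = 0.0633) and Fitm2 (0.78, adjusted p = 0.0521) did not. Median differences of the 10 members were 0.29 at 12-weeks and 0.85 at 34-weeks, against -0.19 and 0.03 for all genes tested.

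Between the time points 0 of 10 members were called in untreated Lipa-/- mice, where edgeR called 0.495% of all genes and 1 member, Cideb, had an unadjusted p under 0.05 (0.0421, adjusted p = 0.304). The Lipa-/- effect changed with time in 0 of 10 members by edgeR, where 0.0619% of all genes, 9 genes, were called. Unadjusted p-values of that change lay under 0.05 for 5 members, Plin2, Plin3, Plin5, Cidea and Cidec, and DESeq2 with transcript length offsets called 2. Shares of all genes under these measures are not given here, and the edgeR share of calls is no background for them. The change was -5.88 ± 1.61 for Cidea (adjusted p = 0.191) and -3.85 ± 0.92 for Cidec (adjusted p = 0.145). Thus more members were called at 34- than at 12-weeks in Lipa-/- mice, while the difference between the 2 effects passed the threshold for 0 members in edgeR.

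Other genes of the droplet pathway were taken from lists, whose counts stand beside the shares of all genes called, which were 20.2% higher and 9.06% lower in Lipa-/- mice at 12-weeks, 20.5% and 15.7% at 34-weeks, 13.6% and 12% in treated mice at 12-weeks and 0.22% in either direction in treated mice at 34-weeks. Counts for droplet formation at 34-weeks were near these shares, and those for other droplet-coat proteins were near or under them at both times. Of 13 genes of triglyceride and sterol ester synthesis, 2 were called higher and 3 lower in Lipa-/- mice at 12-weeks, and 1 higher and 7 lower at 34-weeks, with medians of -0.66 and -1.03. Soat1, which esterifies cholesterol, rose by 5.09 ± 0.35 (adjusted p = 2.96e-08), from 1.80 to 61.7 CPM, and Mogat1 fell by 4.24 ± 1.01 on the log2 scale (adjusted p = 0.00312). Gpam, which starts glycerolipid synthesis, fell by 1.52 ± 0.48 (adjusted p = 0.0194), and Gpat3, its counterpart in the endoplasmic reticulum, rose by 2.47 ± 0.43 (adjusted p = 0.000235). At 34-weeks Soat1 was at 4.51, Mogat1 at -6.50, Gpam at -2.11 and Gpat3, not called, at -0.64 on the log2 scale. Treated mice had 1 higher and 4 lower at 12-weeks, Soat1 being 1.93 above WT, and 0 higher and 1 lower at 34-weeks.

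Of 12 tested genes of droplet formation at the endoplasmic reticulum, 2 were higher and 2 lower in Lipa-/- mice at each time point, with medians of -0.16 and -0.32. Fitm1, the paralog of Fitm2, fell by 3.73 ± 0.44 at 12-weeks (adjusted p = 6.21e-06) and fell by 6.62 ± 0.51 at 34-weeks (adjusted p = 1.01e-07), from 91.3 ± 4.80 to 0.928 ± 0.405 CPM (SD, n = 3). Lpcat2 rose by 3.55 ± 0.43 (adjusted p = 7.16e-06) and Esyt1 by 1.85 ± 0.26 (adjusted p = 3.19e-05) at 12-weeks, while Mctp2 fell by 1.20 ± 0.22 (adjusted p = 0.00033). In treated mice 1 was higher and 1 lower at 12-weeks, and at 34-weeks edgeR called 0, with 2 at an unadjusted p under 0.05. Of 18 tested genes for other droplet-coat and droplet-resident proteins, 0 were higher and 1 was lower at 12-weeks, Ldah, a droplet hydrolase (-1.21 ± 0.24, adjusted p = 0.000837), and 0 and 3 at 34-weeks, with medians of -0.26 and -0.42. Treated mice had 0 higher and 2 lower at 12-weeks, and at 34-weeks 0 were called, with 1 at an unadjusted p under 0.05.

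Of 9 genes of droplet lipolysis, 0 were higher and 2 lower at 12-weeks and 0 and 5 at 34-weeks in Lipa-/- mice, with medians of -0.77 and -2.04. Ces1d, a triglyceride hydrolase of hepatocytes, fell by 2.25 ± 0.36 (adjusted p = 0.000114) and Aadac fell by 2.12 ± 0.36 (adjusted p = 0.000192) at 12-weeks. At 34-weeks Ces1d was at -3.30 and Aadac at -3.25 on the log2 scale, and in treated mice they were at -0.56 and -0.33. Treated mice had 1 higher and 2 lower at 12-weeks, and at 34-weeks 0 called with 1 at an unadjusted p under 0.05.

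Of 18 PPAR-responsive genes, 3 were higher and 9 lower at 12-weeks and 1 and 11 at 34-weeks in Lipa-/- mice, with medians of -1.30 and -1.94. Cyp4a14 fell by 6.36 ± 1.56 (adjusted p = 0.00394), Acot1 fell by 4.27 ± 0.67 (adjusted p = 9.78e-05) and Cyp4a10 fell by 3.35 ± 0.89 (adjusted p = 0.00672) at 12-weeks. Fabp4, a fatty acid carrier that macrophages also express, rose by 3.30 ± 0.35 (adjusted p = 2.02e-06). In treated mice 1 was higher and 1 lower at 12-weeks and 0 and 1 at 34-weeks. Of 15 hypoxia-responsive genes, 6 were higher and 1 lower at 12-weeks and 8 and 2 at 34-weeks, with medians of 0.30 and 1.43. Hk2 rose by 4.73 ± 0.66 (adjusted p = 3.19e-05), Pfkfb4 by 3.89 ± 0.36 (adjusted p = 5.18e-07), Adm by 2.88 ± 0.33 (adjusted p = 4.85e-06) and Car9, which stayed under 1 CPM on average in each group, by 2.53 ± 0.76 (adjusted p = 0.0135). Treated mice had 3 higher and 3 lower at 12-weeks, and at 34-weeks 0 called with 3 at an unadjusted p under 0.05.

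Cell type markers were counted in Lipa-/- mice, where 20.2% and 20.5% of all genes were called higher and 9.06% and 15.7% lower at 12- and 34-weeks. Of 12 macrophage markers, 10 were higher and 1 lower at 12-weeks and 8 and 2 at 34-weeks, and of 11 tested hepatocyte markers 0 were higher and 4 lower at 12-weeks and 0 and 8 at 34-weeks. Of 8 stellate cell markers 5 were higher and 1 lower at 12-weeks and 6 and 2 at 34-weeks, and of 6 markers of sinusoidal endothelial cells 1 was higher and 2 lower at each time point. Of 6 cholangiocyte markers 4 were higher at 12-weeks and 6 at 34-weeks, of 6 neutrophil markers 6 and 4, and of 6 lymphocyte markers 3 and 2, with 1 lymphocyte marker lower at 34-weeks. Of 7 adipocyte markers 2 passed the filter and 0 were called by edgeR at either time, with 0 at an unadjusted p under 0.05. Hepatocyte markers summed to 25490.3, 24216 and 49801 CPM in Lipa-/- mice 4, 5 and 6 at 34-weeks. Of these sums, Alb alone was 15810, 12510 and 34160 CPM. In the same mice Hsd17b13 was at 100.2, 122 and 243 CPM and Cideb at 71.0, 95.8 and 121 CPM, both highest in mouse 6. Plin5 was at 9.96, 12.4 and 13.7 CPM, also highest in mouse 6. Plin2 was at 219, 296 and 215 CPM, with mice 4 and 6 close together, and Fitm2 at 12.4, 11.7 and 13.04 CPM. The part of the hepatocyte markers in these levels was not tested.

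The genes most like each member over the 18 livers were found by the root mean square difference of centred log2 CPM over 12589 candidates, as a description without a test. For Plin2 they were Clpb (0.23), Hadha (0.24) and Fgfrl1 (0.26), and for Plin5 Pex16 (0.19), Hsdl2 (0.22) and Trmt9b (0.23). Hsd17b13 was matched by Slc22a18 (0.21), Tmem143 (0.22) and Qprt (0.22), and Hilpda by Aopep (0.37), Zdhhc20 (0.37) and Sgip1 (0.38). Plin4 had looser matches in Ttc28 (0.67), Ssh1 (0.70) and Tead1 (0.71). Cidec was nearest to Vnn1 (0.94), Acot4 (0.96) and Aldh3a2 (1.01), and Cidea to Vldlr (1.51), Vnn1 (1.57) and Slc22a29 (1.63). Vnn1 was at 72.8, 87.1 and 108 CPM in WT mice at 34-weeks and at 5.84, 8.18 and 21.9 CPM at 12-weeks.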

How the data were processed

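Gene expression was taken from deposited RNA-seq tables of 18 mouse livers, with each mouse a replicate and its group taken from its label. The authors aligned paired-end reads to Ensembl transcripts of GRCm39 with Salmon, and tximport in R 4.3.0 summed them per gene. Deposited estimated counts are not normalized, and 19.4% of them are not whole, so they were rounded. TPM values and the mean effective transcript length of each gene (a score in bases) were deposited by the authors from the same step, and their table of DESeq2 1.40.1 fold changes and p-values was not used. Coordinates and sequences come from GRCm39 with a GENCODE annotation later than the authors' release.

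From the counts, edgeR 4.0.16 in R 4.3.3 gave TMM factors and quasi-likelihood tests with Benjamini-Hochberg adjustment over genes with more than 100 reads in all, from 1 fit of the 6 group means. CPM values use TMM, and likeness a prior count of 2. Shares and lengths were tested by exact permutation within time points. Alternatives were DESeq2 1.42.0 and edgeR with length offsets, library totals, other filters and thresholds, limma 3.58.1 on log2(TPM + 0.5) and log2(TPM + 0.1), fits of the compared groups alone, the mouse number as a block, and each mouse left out. Removing the median length deviation of each mouse was added after seeing the data. The fitting steps were tested on simulated data. The members, lists and rule for named genes were chosen with earlier results of these data known. Besides the members, the rule names up to 4 called genes per list with the largest change in Lipa-/- mice at 12-weeks, the 3 genes most like each of 7 members, and Lipa with human LIPA. Adipocyte markers fall outside it, as do the macrophage and hepatocyte markers named, and all of these were named after their values were seen.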

Additional observations from a re-analysis of the deposited data

Results flagged for a closer look

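The difference of treated Lipa-/- from WT mice changed between 12- and 34-weeks for 2 members, by an interaction test in edgeR. The same test called 18.4% of all genes tested, and the share of members called was near this, so the count does not set the members apart. The change was -7.46 on the log2 scale for Cidea and -3.70 for Cidec. At 34-weeks both genes were high in 2 of the 3 WT mice, and mouse 1 of that group had 1.83 CPM of Cidea and 3.30 CPM of Cidec. The part of single mice and of the study code, which differs between the time points, in these changes cannot be told apart from that of time. Groups of 3 mice are too small for a test of single outlying samples.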

How the results depend on the processing

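Of 25 called differences of members, 0 changed sign in 465 alternative values and 371 of these were still called. Among 1650 alternative values of uncalled differences 75 changed sign and 79 were called. Counts of called members stayed within 1.5 times the main count in 158 of 212 alternatives. Leaving out 1 mouse at a time gave 0 to 2 called members for treated against WT mice at 12-weeks and also at 34-weeks, 1 to 3 for treated against untreated Lipa-/- mice at 12-weeks, 0 to 2 for WT mice over time, 1 to 2 for treated mice over time, 0 to 1 for the change of the Lipa-/- effect, 0 to 3 for that of the treated effect, and 0 to 2 members with a length difference. For the Plin2 share in treated mice, leaving out 1 mouse gave -3.98 (mouse 12 at 12-weeks) to -1.72 points. Shares of all genes called under these alternatives are not given here, so the counts show only how the main counts moved. DESeq2 called 5 members in Lipa-/- mice at 12-weeks and 2 for the change of that effect. For treated against WT mice at 12-weeks, 0 were called at an adjusted p under 0.01 or with length offsets, 2 on totals, 3 by adjusted p alone, and 3 with limma at either pseudocount. At 34-weeks that comparison gave 0 at the stricter p, 0 with limma or with only the compared groups, and 1 with length offsets. Limma called 5 members in Lipa-/- mice at 34-weeks (pseudocount 0.5) and 4 between treated and untreated mice at 12-weeks. For WT mice over time it called 1, the stricter p gave 0 and the compared groups alone 0. For treated mice over time, 3 were called by p alone or on totals, 5 with limma and 2 with the compared groups alone. For the change of the treated effect, 0 were called at the stricter p or with the compared groups alone and 1 with limma.

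Among uncalled log2 differences from WT, those that changed sign were of Hsd17b13 in Lipa-/- mice at 12-weeks (0.0324 on totals, 0.0363 and 0.0362 with limma at 0.1 and 0.5) and of Plin4 at 34-weeks (-0.32 to 0.89 with 1 mouse left out, lowest without mouse 1 of the WT group). In treated against WT mice at 12-weeks they were Cidea (-0.14 with limma at 0.1, -1.59 to 1.91 with 1 mouse left out, lowest without treated mouse 10), Cidec (-0.19 on totals, -0.51 and -0.33 with limma at 0.1 and 0.5, -0.0847 to 0.61 with 1 mouse left out, below 0 without treated mouse 10 or WT mouse 1) and Plin3 (-0.0784 and -0.0757 with limma). At 34-weeks they were Cideb (0.0170 and 0.0169 with limma) and Hilpda (-0.78 to 0.17 with 1 mouse left out, highest without WT mouse 1). Between treated and untreated mice at 12-weeks Plin2 was -0.0801 on totals and -0.54 with limma at either, and with limma at 0.5 Cidea was -0.45, Fitm2 -0.61, Hilpda -0.90 (adjusted p = 0.04) and Hsd17b13 -1.04, which was called (adjusted p = 0.0186). Without treated mouse 10 Cidea was -2.23, Hilpda -0.02 and Cideb, otherwise negative, 0.14, and without mouse 11 Hsd17b13 was -0.08. Uncalled differences over time changed sign as well, and of these Plin3 in treated mice, which had an adjusted p under 0.05, was 0.39 and 0.38 with limma at 0.1 and 0.5. The cause of these changes was not tested.

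Mice with the same number at the 2 time points deviated from their group means with correlations from -0.24 to 0.46 in WT mice and of -0.08 and -0.25 in treated mice, so the numbers were not taken as pairs. With the mouse number as a block, 0 members were called for WT mice over time and 0 for treated mice over time, and over all genes the calls went from 47 to 1 and from 4648 to 1704. Cidea and Cidec at 12-weeks and Plin4 and Hilpda in WT mice rest on few reads, which limits their precision.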
